A study of Mus musculus with 10 samples.

Results

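The 39 genes described here encode the cell-to-cell junctions of the colon epithelium. They comprise the tight junction (9 claudins, 4 further membrane proteins and 8 scaffold and polarity proteins), the adherens junction (7 genes), the desmosome (8 genes), EpCAM and 2 gap junction connexins. They were given as a list of names, with no threshold on measured values but with earlier results of these data known, and each of the 39 matched 1 of the 33632 gene IDs of the count table. RNA sequencing measured them in mouse colon crypts, the pits of the colon lining at whose base the stem cells lie, in 5 libraries labelled CKO and 5 labelled flox. CKO mice had the genotype Lgr5-EGFP-IRES-CreERT2/+;Sox21fl/fl and flox mice Sox21fl/fl, and all 10 libraries carry the label of a normal diet and a normal liver. Both groups thus had the same loxP-flanked alleles of Sox21, a transcription factor gene. In CKO the stem cell gene Lgr5 also carried a knock-in that makes a green fluorescent protein and a tamoxifen-inducible Cre recombinase, so that deletion starts in Lgr5-positive cells and is passed to their offspring. The labels give no age, no tamoxifen schedule and no word on tamoxifen in the flox mice. They do not say whether each library was a separate animal, so the p-values measure only the spread between these libraries, which may be technical. The comparison asks how far the junction transcripts of the crypt differ between CKO and flox.

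Epithelial cells of the gut are held together by an apical set of junctions. Claudins form the strands of the tight junction: some, such as Cldn2 and Cldn15, form pores for small cations, while others, such as Cldn1, Cldn3, Cldn4 and Cldn8, seal the space between cells. Beneath them the cadherin Cdh1 and the nectins tie the actin cytoskeletons of neighbours together through catenins and afadin, and desmosomes tie their keratin filaments.

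Total counts ran from 18926634 to 23642415 in CKO and from 21414122 to 23407565 in flox. The mitochondrial share of counts was 26.5% in flox 1, 29.3% in flox 4 and 4.30% to 11.8% across the remaining 8 libraries, all 5 CKO libraries among them. Relative to the mean of the 10 libraries, CPM (counts scaled to library size) was also lower for longer genes in flox 1 and flox 4. The slope of log2 CPM minus that mean on log2 gene length was -0.25 for flox 1, -0.14 for flox 4 and -0.07 to 0.11 elsewhere. Fold changes of the junction genes are therefore given with and without this pair. Sox21 itself was at 5.34 ± 1.94 CPM in CKO and 4.04 ± 1.80 CPM in flox (SD, n = 5 each; edgeR adjusted p = 0.577). The targeted transcript was thus not lower in CKO and gave no check of the labels, and CKO and flox stand for the libraries so labelled. All 10 defining markers of the epithelium, which include the junction genes Epcam and Cdh1, were tested, and 4 had fold changes above 0. Their summed level was 15792 to 28076 CPM in CKO and 20437 to 34128 CPM in flox. Summed goblet cell markers (5 of 5 tested, all with fold changes below 0) were at 12058 to 22895 CPM in CKO and 22928 to 37689 CPM in flox. These sums did not overlap but nearly touched. Of the single markers, Muc2 stood apart, while Fcgbp, Clca1, Spink4 and Tff3 each overlapped between the groups. The endothelial sums given next were also apart by a narrow margin. The 8 fibroblast and muscle markers summed to 43.1 to 180.3 CPM in CKO and 16.1 to 62.0 CPM in flox, 7 of squamous epithelium to 3.81 to 8.28 CPM in CKO and 7.83 to 14.95 CPM in flox, 5 of endothelium to 4.28 to 7.43 CPM in CKO and 7.49 to 10.1 CPM in flox and 5 of leukocytes to 17.4 to 35.4 CPM in CKO and 15.1 to 32.4 CPM in flox. None of these markers was at 0 in all 10 libraries, and their part in the junction levels was not tested. In bulk crypts, fewer cells of a type and less RNA per cell cannot be told apart.

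No junction gene passed the test between CKO and flox. Of the 39 genes, 38 had enough counts to be tested, and edgeR's quasi-likelihood test called 0 of them at an adjusted p of 0.05, where it called 0% of all 14963 genes tested. DESeq2 also called 0 junction genes, against 1.19% of all genes, and limma voom with quality weights 0, against 0.294%. At an unadjusted p under 0.05 edgeR had 3 junction genes, which is 7.89% of those tested, beside 13% of all genes. Cldn12 and Marveld3 had positive fold changes, as 5.05% of all genes did at that level, and Pkp3 a negative, as 7.91% did. DESeq2 had 5 junction genes at that level, beside 16.3% of all genes. Without flox 1 and flox 4 edgeR had 0, beside 6.41%, and DESeq2 called 0, beside 0.454%. In none of the 38 did the CKO and flox libraries stand fully apart, as they did in 2.18% of all genes.

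Fold changes were small for most of the list (fold changes are given ± SE and levels ± SD, n = 5 each). The log2 fold changes of CKO over flox ran from -0.66 (Cldn3) to 0.60 (Ocln), with 26 above 0 and 12 below. Their median was 0.12, beside 0.001 over all genes tested. For 32 of 38 junction genes the whole 95% interval of the fold change lay within a 2-fold change in either direction (84.2%), beside 67.6% of all genes tested. It lay within a 1.5-fold change for 16 (42.1%), beside 34.6%. The 6 genes whose interval reached past a 2-fold change were Cldn2, Cldn3, Cldn8, Ocln, Magi3 and Gja1. In the plot of fold changes, the negative end is led by Cldn3 and Pkp3 and the positive end by Ocln and Magi3.

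**Figure D1:**
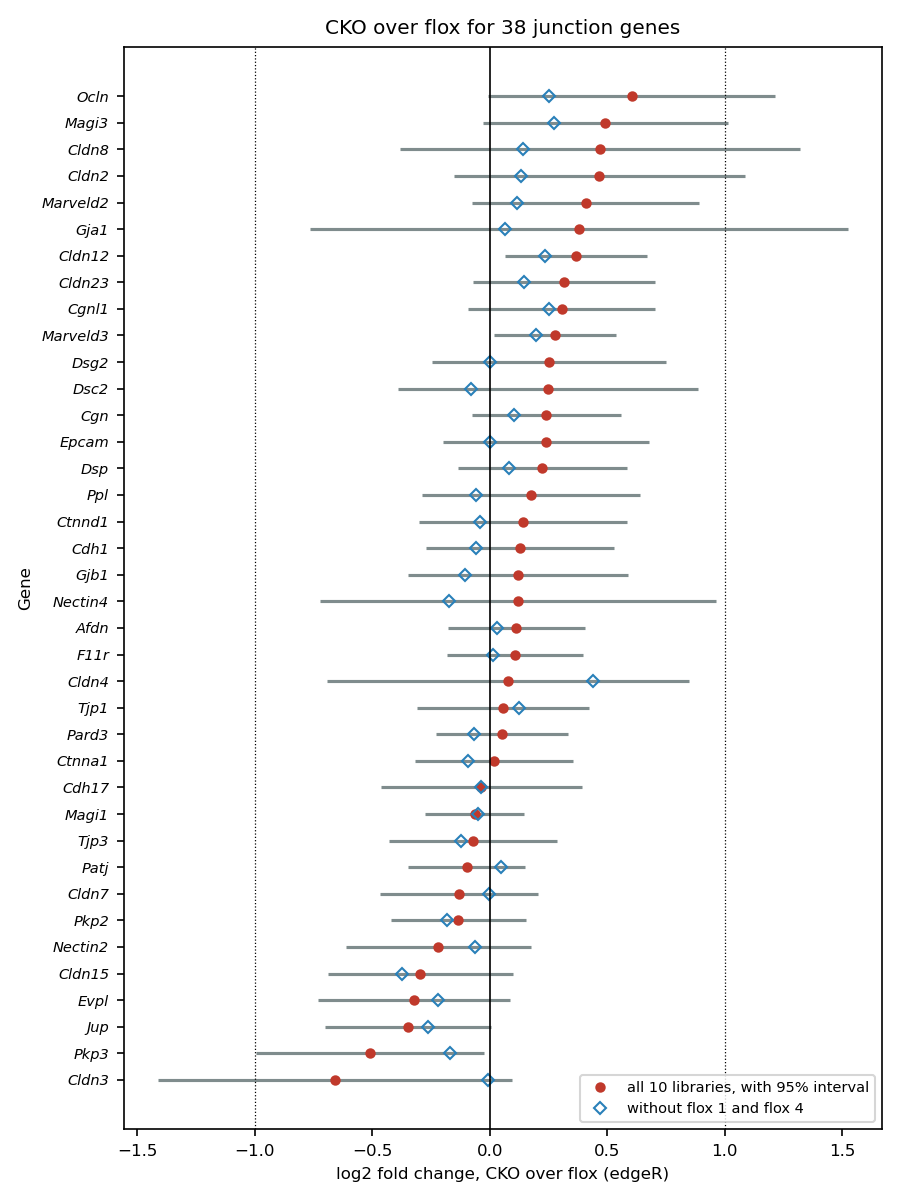
Log2 fold change of CKO over flox (horizontal axis) for the 38 junction genes tested, with all 10 libraries (filled points, with 95% intervals) and without flox 1 and flox 4 (open diamonds). Dotted lines mark a 2-fold change; most diamonds lie nearer to 0 than their points, and the point farthest below 0, Cldn3 at -0.66, has its diamond at -0.01.

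The median size of the log2 fold change of the junction genes, sign aside, was 0.23 with all libraries and 0.10 without flox 1 and flox 4, beside 0.24 and 0.16 over all genes tested. Without that pair, 30 of the 38 fold changes were closer to 0 and 10 changed sign, with no such counts given for all genes. The largest in size was then 0.44 (Cldn4), and the median was -0.0014, with 18 above 0 and 20 below. Flox 1 and flox 4 were the lowest pair of all 10 libraries for 14 junction genes (36.8%, beside 18.9% of all genes tested): Cldn2, Cldn12, Cldn23, Ocln, Marveld2, Marveld3, F11r, Cgn, Cdh1, Dsg2, Dsc2, Dsp, Ppl and Epcam. They were the highest pair for 4: Cldn3, Cldn7, Patj and Pkp3 (10.5%, beside 19.7% of all genes). The part of the high mitochondrial share in these values was not tested. In the map of all tested members by library, the deepest blues are Ocln, Cldn8 and Magi3 in flox 1 and Gja1 in flox 4.

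**Figure D2:**
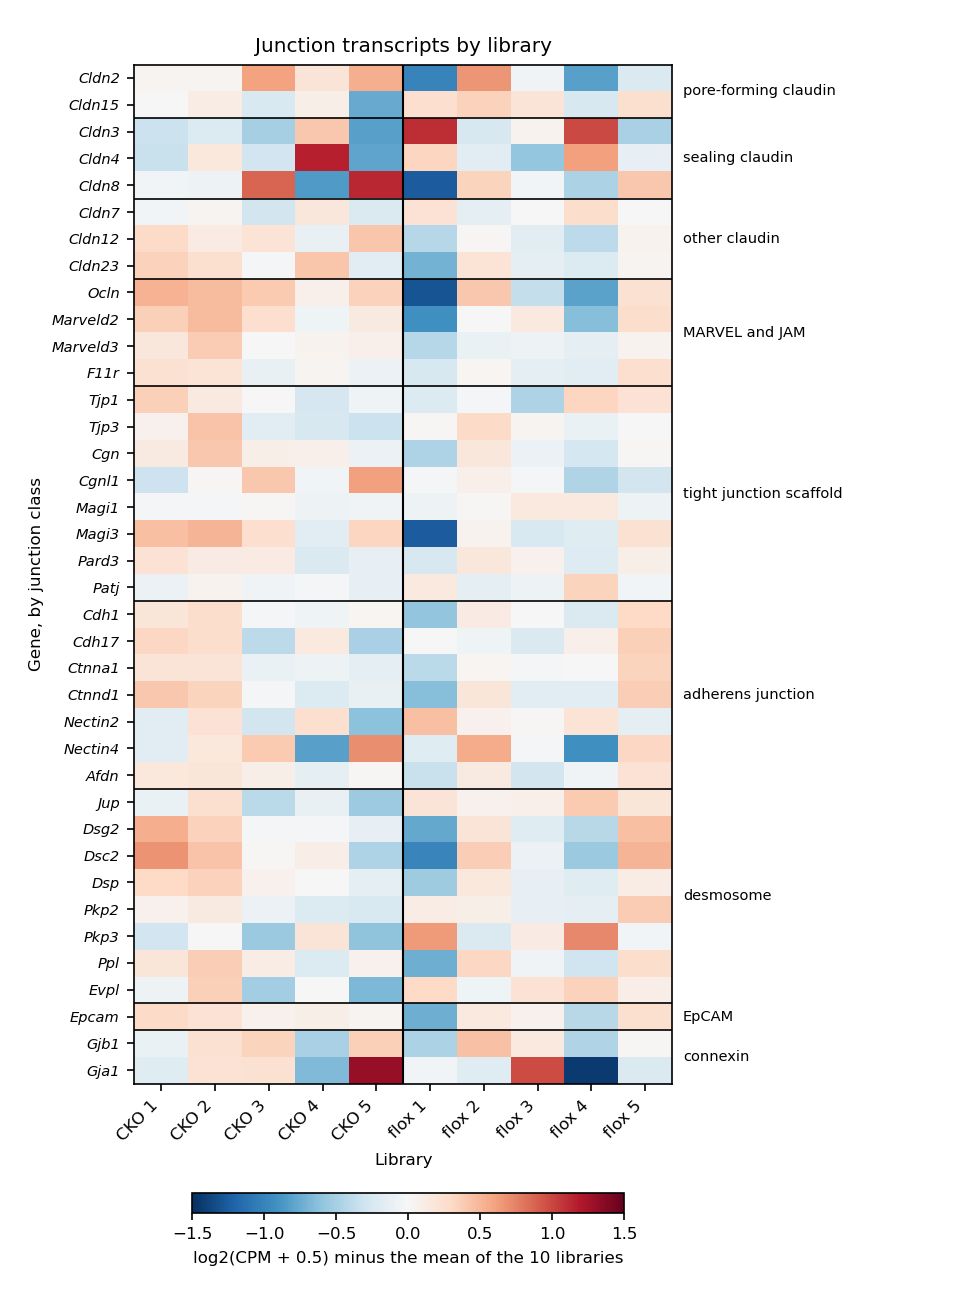
Level of each tested junction gene in each library as log2(CPM + 0.5) minus its mean over the 10 libraries (colour), with genes grouped by junction class and CKO libraries left of flox libraries. Flox 1 and flox 4 are low for occludin, the desmosomal cadherins and Epcam and high for Cldn3 and Pkp3.

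By length-scaled level, a few members dominated the crypt junction. In the deposited FPKM values, which scale counts by transcript length and library total, Cldn7 averaged 949 ± 42.2 FPKM in CKO and 833 ± 87.1 FPKM in flox (SD, n = 5 each). Cldn3 averaged 853 ± 183.04 FPKM in CKO and 925 ± 168 FPKM in flox, and these 2 claudins did not differ from each other beyond their spread. Epcam followed with 839 ± 97.6 FPKM in CKO and 583 ± 302 FPKM in flox. Next came the cadherins Cdh1, with a mean FPKM of 210.3 over all 10 libraries, and Cdh17 (186), then Cldn15 (139), Jup (129.8) and Tjp3 (126). The ranges of these 5 over the libraries overlapped. By mean FPKM 12 of the 39 were in the top 10% of genes tested and 32 were above the median gene. At the other end stood Ppl (1.48 FPKM), Gja1 (1.07), Nectin4 (0.882) and Cldn1. FPKM values carry no scaling for the mitochondrial share. Single genes are therefore compared between CKO and flox below in CPM on the TMM-scaled library size.

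The sealing claudins had a class median of 0.08, of 0.14 without flox 1 and flox 4 and of -0.35 without CKO 4. Cldn3 (ENSMUSG00000070473), the most abundant by FPKM, had 668, 726, 592, 1109 and 475 CPM in CKO 1 to 5, against 1806, 705, 866, 1660.2 and 594 CPM in flox 1 to 5. Its high flox mean rested on flox 1 and flox 4, while the other 3 flox libraries lay inside the CKO range. The log2 fold change was -0.66 ± 0.34, the edgeR adjusted p 0.408, and without that pair the fold change was -0.01. Cldn4 (ENSMUSG00000047501), a sealing claudin that neighbours Cldn3 on chromosome 5, had 20.2, 28.6, 20.9, 58.0 and 14.5 CPM in CKO 1 to 5, against 32.1, 22.9, 16.9, 39.4 and 23.5 CPM in flox 1 to 5. CKO 4 was the highest library of all and the groups overlapped, with a log2 fold change of 0.08 ± 0.35 and an edgeR adjusted p of 0.924. It is the member whose fold change was farthest from 0 without flox 1 and flox 4, at 0.44, and without CKO 4 alone it was -0.35. CKO 4, flox 1 and flox 4, the 3 libraries with the largest mitochondrial shares, were the 3 highest libraries for both of these neighbours. The count ratio of Cldn3 to Cldn4 was 33.1, 25.3, 28.3, 19.1 and 32.7 in CKO 1 to 5, against 56.2, 30.9, 51.1, 42.1 and 25.2 in flox 1 to 5. Cldn8 (ENSMUSG00000050520), a claudin of the distal colon that limits sodium leak, had 30.4, 29.7, 57.8, 17.3 and 69.2 CPM in CKO 1 to 5, against 12.9, 39.9, 30.7, 22.4 and 41.7 CPM in flox 1 to 5. It was highest in CKO 5 and CKO 3 and lowest in flox 1 and CKO 4, so its spread within each group exceeded the difference between them. Its log2 fold change of 0.47 ± 0.39 (edgeR adjusted p = 0.556) was 0.14 without flox 1 and flox 4. The fourth sealing claudin, Cldn1, had 1 read in CKO 2, 1 in CKO 3 and 0 in each of the other 8 libraries, where 0 allows up to 3 counts, so a difference was not detectable at this depth and no fold is given.

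The pore-forming claudins gave fold changes of opposite sign, neither past the threshold. Cldn2 (ENSMUSG00000047230), the cation and water pore found in crypts, had 137, 137, 203, 153 and 196 CPM in CKO 1 to 5, against 66.5, 212, 129, 76.0 and 115 CPM in flox 1 to 5. The lowest were flox 1 and flox 4, and flox 2 was the highest of all. The log2 fold change was 0.47 ± 0.28 (edgeR adjusted p = 0.449), and 0.13 without flox 1 and flox 4. Cldn15 (ENSMUSG00000001739), a sodium pore that serves glucose uptake in mouse small intestine, had 209, 224, 177, 221 and 122 CPM in CKO 1 to 5, against 248, 264, 237, 176 and 244 CPM in flox 1 to 5. CKO 5 was lowest, and flox 4 was the only flox library that did not lie above all of CKO. The log2 fold change was -0.30 ± 0.18, and the edgeR adjusted p 0.449. It was 1 of the 8 members whose fold change was farther from 0 without flox 1 and flox 4, at -0.38 with an unadjusted edgeR p of 0.0689. The count ratio of Cldn15 to Cldn2 was 1.52, 1.63, 0.872, 1.44 and 0.626 in CKO 1 to 5, against 3.72, 1.25, 1.83, 2.32 and 2.13 in flox 1 to 5. Of the flox libraries, flox 2 lay within the CKO range of this ratio and the other 4 above it.

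Set against each other by summed FPKM, the pore-forming claudins (Cldn2 and Cldn15) stood at 211, 228, 239, 191 and 191 in CKO 1 to 5, against 106, 299, 205, 84.6 and 212 in flox 1 to 5. The sealing claudins (Cldn1, Cldn3, Cldn4 and Cldn8) stood at 841, 938, 848, 1177 and 687 in CKO 1 to 5, against 1104, 943, 957, 1067 and 697 in flox 1 to 5, the larger sum in every library. The pore to sealing ratio was 0.243 ± 0.048 in CKO and 0.202 ± 0.112 in flox (SD, n = 5 each). Flox 4 at 0.0793 and flox 1 at 0.0962 were the lowest of the 10 libraries, and without them the flox mean was 0.279 ± 0.0563 (n = 3), above that of CKO. The order of the groups thus turned with that pair, and the difference was smaller than the spread between libraries either way. Cldn3 carried 34.2% to 47.6% of all claudin FPKM in CKO and 36.1% to 56.0% in flox, and made up nearly all of the sealing sum. With Cldn3 left out, a choice made after the values were seen, the ratio was 4.89 ± 1.24 in CKO and 6.15 ± 1.52 in flox. In flox 2, flox 3 and flox 5 alone it was 6.76 ± 1.08 (n = 3), and that difference from CKO exceeded both SDs but was not tested. In the plot of the claudin make-up, Cldn3 and Cldn7 fill most of every bar.

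**Figure D3:**
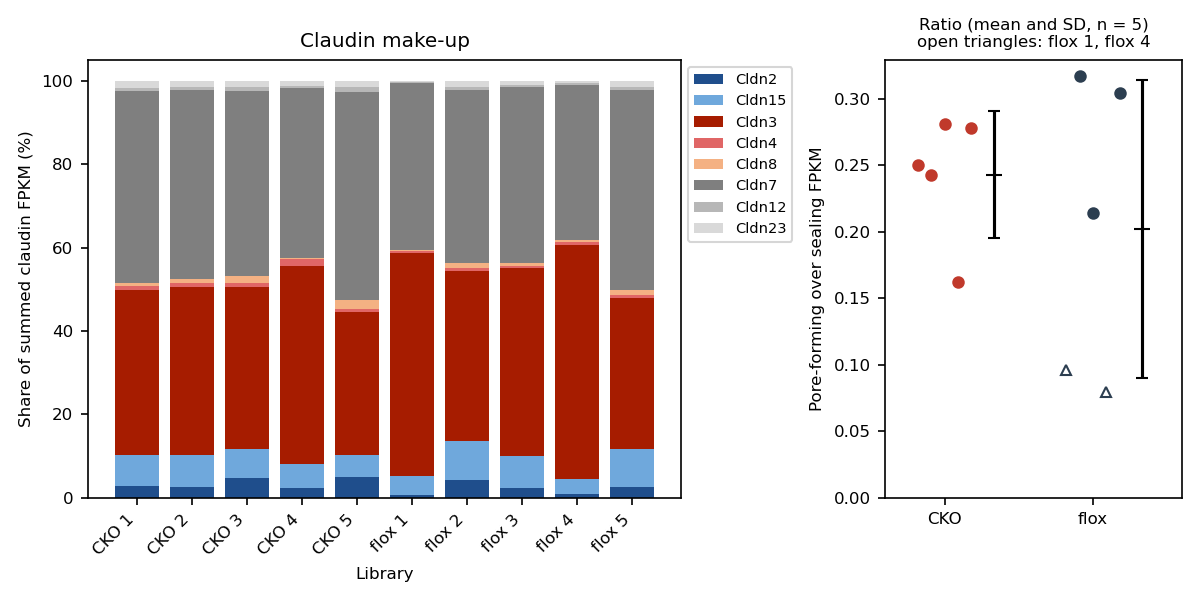
Left, share of the summed claudin FPKM (vertical axis, %) held by each claudin in each library, with pore-forming claudins in blue, sealing claudins in red and orange and the others in grey. Right, ratio of pore-forming to sealing FPKM per library with group mean and SD (n = 5 each); flox 1 and flox 4 (open triangles) at 0.0962 and 0.0793 lie below all other libraries.

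The remaining claudins have roles that depend on the tissue. Cldn7 (ENSMUSG00000018569), which lies along the lateral membrane and binds EpCAM, had 754, 794, 638, 871 and 665 CPM in CKO 1 to 5, against 897, 703, 776, 928 and 771 CPM in flox 1 to 5. Its groups overlapped widely, with a log2 fold change of -0.13 ± 0.15 and an edgeR adjusted p of 0.673, and of -0.0019 without flox 1 and flox 4. Cldn7 held 45.3% ± 3.30 of the claudin FPKM in CKO and 41.7% ± 3.93 in flox. Cldn12 (ENSMUSG00000046798), linked to calcium passage in mouse, had the smallest p of the list and stood at 51.1, 45.5, 48.5, 38.7 and 56.0 CPM in CKO 1 to 5, against 31.1, 42.5, 37.3, 31.7 and 43.3 CPM in flox 1 to 5. CKO 4 lay below flox 2 and flox 5, so the groups overlapped. The log2 fold change of 0.37 ± 0.14 had an unadjusted p of 0.022 and an edgeR adjusted p of 0.372, and was 0.23 without flox 1 and flox 4. Cldn23 (ENSMUSG00000055976), a claudin of differentiated colon cells, had 45.4, 42.0, 35.1, 47.4 and 31.6 CPM in CKO 1 to 5, against 21.4, 40.8, 32.2, 30.6 and 36.6 CPM in flox 1 to 5. CKO 3 and CKO 5 lay within the flox range, and the log2 fold change of 0.31 ± 0.18 (edgeR adjusted p = 0.43) was 0.15 without that pair.

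Occludin, its relatives of the MARVEL family and the adhesion molecule JAM-A all had fold changes above 0, none past the threshold, with a class median of 0.34 that was 0.16 without flox 1 and flox 4. Ocln (ENSMUSG00000021638), a membrane protein of the strands, had 59.4, 57.4, 54.4, 43.6 and 52.7 CPM in CKO 1 to 5, against 16.5, 55.0, 32.2, 23.4 and 48.4 CPM in flox 1 to 5. The CKO libraries were close together while flox 1, flox 4 and flox 3 lay below all of them. At 0.60 ± 0.28 its log2 fold change was the largest above 0 in the list (edgeR adjusted p = 0.386), with a ratio interval of 0.995 to 2.32, and it was 0.25 without flox 1 and flox 4. Marveld2 (ENSMUSG00000021636), tricellulin, which seals the corners where 3 cells meet, had 34.9, 38.02, 32.6, 26.0 and 29.9 CPM in CKO 1 to 5, against 14.2, 27.2, 30.0, 17.3 and 32.6 CPM in flox 1 to 5. Both flox 1 and flox 4 were below all other libraries, and the log2 fold change of 0.41 ± 0.22 (edgeR adjusted p = 0.416) was 0.12 without them. Marveld3 (ENSMUSG00000001672) had 66.3, 76.9, 59.1, 60.9 and 61.9 CPM in CKO 1 to 5, against 43.7, 54.7, 55.7, 53.3 and 60.8 CPM in flox 1 to 5. Flox 5 lay within the CKO range and the other 4 flox libraries below it. Here the log2 fold change was 0.28 ± 0.12 with an unadjusted p of 0.0393 and an edgeR adjusted p of 0.379, and it was 0.20 without flox 1 and flox 4. F11r (ENSMUSG00000038235), which encodes JAM-A, had 202, 199, 159.7, 178 and 161 CPM in CKO 1 to 5, against 146, 176, 156, 153 and 205 CPM in flox 1 to 5. Flox 5 was the highest of all and the groups overlapped (log2 fold change 0.11 ± 0.13, edgeR adjusted p = 0.686; 0.02 without flox 1 and flox 4).

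**Figure D4:**
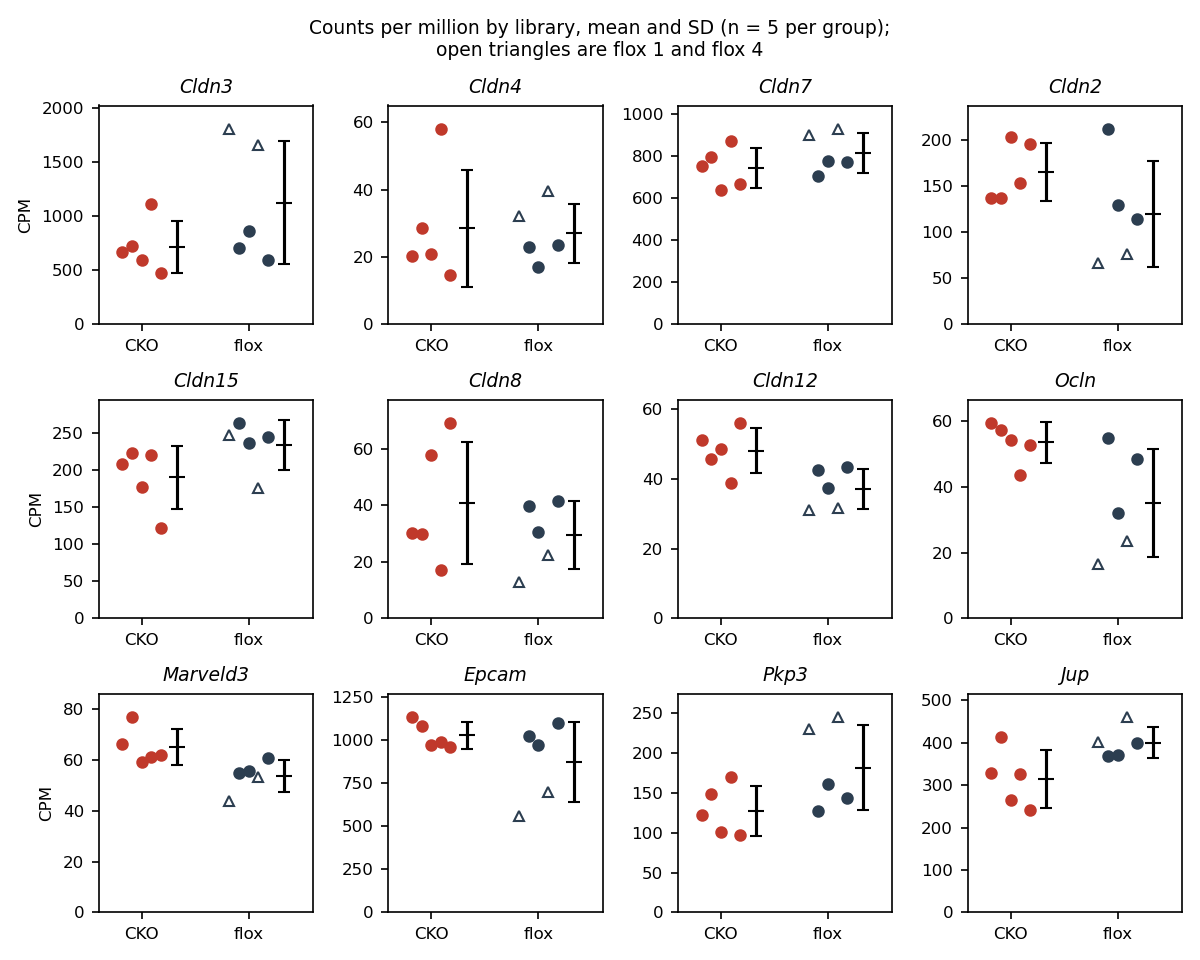
CPM (vertical axes, from 0) of 12 junction genes in each CKO and flox library, with group mean and SD (n = 5 each). Open triangles mark flox 1 and flox 4, which lie above the other flox libraries for Cldn3 and Pkp3 and below them for Cldn2, Ocln and Epcam; in every panel the groups overlap.

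The scaffold and polarity proteins under the strands had a class median of 0.05, with 5 of 8 above 0, and a median of 0.08 without flox 1 and flox 4. Tjp3 (ENSMUSG00000034917), a zonula occludens protein that ties strands to actin, was the most abundant and had 319.9, 413, 272, 258 and 244 CPM in CKO 1 to 5, against 308, 372, 314, 284 and 304 CPM in flox 1 to 5. CKO 2 and flox 2 were the highest of their groups, and the log2 fold change was -0.07 ± 0.16 (edgeR adjusted p = 0.837; -0.12 without that pair). Tjp1, its relative ZO-1, ranged over 49.4 to 75.2 CPM in CKO and 42.3 to 73.4 CPM in flox, with a log2 fold change of 0.06 (0.12 without that pair). Cgn, cingulin, which links the junction to the cytoskeleton, stood at 179 ± 23.1 CPM in CKO and 152 ± 25.3 CPM in flox (log2 fold change 0.24, 0.10 without flox 1 and flox 4). Its paralogue Cgnl1 stood at 31.2 ± 8.20 CPM in CKO and 25.2 ± 3.68 CPM in flox (log2 fold change 0.31, 0.25 without that pair). Magi3 (ENSMUSG00000052539), a membrane-associated guanylate kinase scaffold, had 40.2, 41.6, 34.8, 26.0 and 36.5 CPM in CKO 1 to 5, against 11.9, 30.3, 24.7, 25.7 and 34.3 CPM in flox 1 to 5. Flox 1 was lowest by far and CKO 4 lay within the flox range. Magi3 had a log2 fold change of 0.49 ± 0.24 (edgeR adjusted p = 0.394), and of 0.27 without flox 1 and flox 4. Its relative Magi1 had the narrowest ratio interval of the list, 0.827 to 1.11, at 35.5 ± 0.898 CPM in CKO and 37.1 ± 2.899 CPM in flox, with a log2 fold change of -0.06 (-0.05 without that pair). The polarity proteins Pard3 and Patj, which act at the apical border, had log2 fold changes of 0.05 and -0.10 with ratio intervals of 0.852 to 1.26 and 0.787 to 1.11, and turned to -0.06 and 0.05 without flox 1 and flox 4.

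Promoter sequences of tight junction genes and Epcam are shown because they hold the E-box letters CAGGTG, to which the repressors Snail and Zeb are known to bind in promoters such as that of Cdh1. RefSeq promoter sequences (assembly GRCm38.p6, 250 bases before to 50 after each start) matched 27 of the 39 genes. Searched on both strands, where the reverse reads CACCTG, these letters were found in 41.5% of the 41 promoters of these genes and in 20.2% of all 32851 promoters of the same length. By gene, 14 of the 27 members (51.9%) had at least 1, beside 22.6% of all 27025 genes. The members had more promoters per gene (41 for 27 genes) than all genes did (32851 for 27025), which was not adjusted for. The same Marveld2 site was counted from different starts. All sites in 6 of these genes follow, with the E-box in capitals, read along the strand of the gene. The other members with a match were Dsp, Gjb1, Magi1, Marveld2, Nectin2, Pard3, Patj and Tjp3. Cdh1 was not among the 14. The members without a promoter sequence are not named here, so this does not show that its promoter lacks the letters.
Cldn3, chr5:134986233-134986262, plus strand: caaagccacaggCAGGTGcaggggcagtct
Cldn4, chr5:134946931-134946960, minus strand: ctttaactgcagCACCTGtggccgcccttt
Cldn4, chr5:134946906-134946935, minus strand: cctttcttgttgCAGGTGcaggcaggaaag
Cldn7, chr11:69965312-69965341, plus strand: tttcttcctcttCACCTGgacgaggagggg
Cldn7, chr11:69965352-69965381, plus strand: agacttccggttCAGGTGagtgtcccttca
Ocln, chr13:100552549-100552578, minus strand: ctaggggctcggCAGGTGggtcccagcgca
Ocln, chr13:100552694-100552723, minus strand: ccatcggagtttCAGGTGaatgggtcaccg
Epcam, chr17:87635780-87635809, plus strand: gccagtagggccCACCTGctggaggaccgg
Epcam, chr17:87635948-87635977, plus strand: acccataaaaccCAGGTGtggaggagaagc
F11r, chr1:171437427-171437456, plus strand: agttcggggttgCACCTGcgtacggtgagt
Counted from the annotated start of each promoter, with the start as base 1, the capitals begin at base 32 in Cldn3, at base 12 in the second Cldn4 sequence and at base 8 in the second Ocln sequence. They begin 14 bases before the start in the first Cldn4 sequence and 68 before it in the first Ocln sequence. In Cldn7 they begin 97 and 57 bases before it, in Epcam 187 and 19, and in F11r 122. The Ocln sequences are counted from different annotated starts, and the second lies upstream of the first. The other 8 motifs searched, also on both strands, were found as follows. SOX letters AACAAT were in 4.88% of member and 10.7% of all promoters, ACAATG in 7.32% of member and 12.6% of all promoters and the core ATTGT, which both contain on 1 strand, in 24.4% of member and 31.0% of all promoters. The grainyhead letters AACCGG were in 9.76% of member and 6.83% of all promoters, and AACCGGTT, which contains them, in 0% of member and 0.146% of all promoters. The TATA box letters TATAAA were in 14.6% of member and 13.6% of all promoters, the CDX letters TTTAT, which overlap them on the other strand, in 34.1% of member and 40.0% of all promoters, and the HNF4 letters CAAAGT in 4.88% of member and 14.4% of all promoters. A match of letters does not show binding. Among transcripts of E-box repressors, Snai1 was at 0 to 0.142 CPM in CKO and 0 to 0.178 CPM in flox and Zeb1 at 0.0875 to 0.145 CPM in CKO and 0.0433 to 0.178 CPM in flox. Zeb2 was at 0.175 to 0.884 CPM in CKO and 0 to 0.401 CPM in flox, and all 3 were too low for a test.

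The adherens junction genes had a class median of 0.11, and of -0.06 without flox 1 and flox 4. Cdh1 (ENSMUSG00000000303), E-cadherin, the main adhesion receptor of epithelia, had 911, 968, 799, 771 and 822 CPM in CKO 1 to 5, against 534, 881, 807, 692 and 991 CPM in flox 1 to 5. Flox 1 and flox 4 were lowest and flox 5 was highest. Cdh1 had a log2 fold change of 0.13 ± 0.18 (edgeR adjusted p = 0.726), with a ratio interval of 0.828 to 1.44, and of -0.06 without flox 1 and flox 4. Cdh17, the liver-intestine cadherin, ranged over 403 to 699 CPM in CKO and 486 to 722 CPM in flox, lowest in CKO 5 and CKO 3, with a log2 fold change of -0.04 (-0.04 without that pair). The catenins that hold Cdh1, Ctnna1 (alpha-catenin, the link to actin) and Ctnnd1 (p120, which keeps cadherin at the surface), had log2 fold changes of 0.02 and 0.14, and of -0.09 and -0.04 without flox 1 and flox 4, so both signs turned. The count ratio of Cdh1 to Ctnnd1 was 2.37 ± 0.249 in CKO and 2.37 ± 0.166 in flox. In GENCODE a second gene on the same strand, Gm28635, shares 61.2% of the exon bases of Ctnnd1, so the Ctnnd1 count is uncertain. Nectin2, an immunoglobulin-type adhesion receptor, stood at 140.0 ± 34.0 CPM in CKO and 163 ± 25.7 CPM in flox (log2 fold change -0.22, -0.06 without that pair). Afdn, the afadin that anchors nectins to actin, stood at 113 ± 9.74 CPM in CKO and 105 ± 17.7 CPM in flox (log2 fold change 0.11, 0.03 without that pair). Nectin4 ranged over 1.097 to 4.07 CPM in CKO and 0.982 to 3.66 CPM in flox, with a log2 fold change of 0.12 that turned to -0.17 without flox 1 and flox 4.

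In the desmosome 4 of 8 genes had fold changes above 0 and 4 below, with a class median of 0.02 (-0.13 without that pair). The desmosomal cadherins of simple epithelia were among the first: Dsg2 stood at 229 ± 47.2 CPM in CKO and 193 ± 63.6 CPM in flox and Dsc2 at 139 ± 40.5 CPM in CKO and 117 ± 47.8 CPM in flox. Their log2 fold changes of 0.25 and 0.25 were -0.00085 and -0.08 without flox 1 and flox 4. The count ratio of Dsg2 to Dsc2 was 1.54, 1.59, 1.64, 1.56 and 2.14 in CKO 1 to 5, against 1.97, 1.49, 1.58, 1.86 and 1.61 in flox 1 to 5, highest in CKO 5. Dsp, desmoplakin, which binds keratin filaments, stood at 394 ± 56.1 CPM in CKO and 338 ± 61.3 CPM in flox (log2 fold change 0.22, 0.08 without that pair). The armadillo proteins of the plaque lay on the other side of 0. Jup (ENSMUSG00000001552), plakoglobin, shared by desmosomes and adherens junctions, had 328, 413, 264, 326 and 241 CPM in CKO 1 to 5, against 402, 368, 371, 460.4 and 399 CPM in flox 1 to 5. CKO 2 was the highest CKO library and lay within the flox range, and the other 4 CKO libraries lay below all of flox. Jup had a log2 fold change of -0.35 ± 0.16 (edgeR adjusted p = 0.386) with a ratio interval of 0.615 to 1.004, and of -0.26 without flox 1 and flox 4. Pkp3 (ENSMUSG00000054065), plakophilin 3, had 122, 149, 101, 169.6 and 97.3 CPM in CKO 1 to 5, against 231, 128, 162, 246 and 144 CPM in flox 1 to 5. Flox 1 and flox 4 were the highest of all and the other 3 flox libraries lay within the CKO range. At -0.51 ± 0.22, its log2 fold change had an unadjusted p of 0.0406 and an edgeR adjusted p of 0.38, and was -0.17 without that pair. Pkp2, plakophilin 2, had a log2 fold change of -0.13 (-0.18 without that pair). The plakins Evpl (envoplakin) and Ppl (periplakin) are best known from squamous epithelium. Evpl stood at 93.3 ± 27.0 CPM in CKO and 117 ± 12.9 CPM in flox and Ppl at 8.65 ± 1.28 CPM in CKO and 7.63 ± 2.25 CPM in flox, with log2 fold changes of -0.32 and 0.17. Without flox 1 and flox 4 these were -0.22 for Evpl and -0.06 for Ppl, whose sign turned.

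EpCAM and the connexins complete the list. Epcam (ENSMUSG00000045394), whose protein holds claudins at the lateral membrane, had 1135, 1084, 970.1, 990.3 and 961 CPM in CKO 1 to 5, against 559, 1026, 969, 700.0 and 1102 CPM in flox 1 to 5. The CKO libraries and the other 3 flox libraries shared a narrow range above flox 4 and flox 1. With all libraries the log2 fold change was 0.24 ± 0.20 (edgeR adjusted p = 0.559), and without flox 1 and flox 4 it was 0.001. The count ratio of Cldn7 to Epcam, its binding partner, was 0.664, 0.733, 0.658, 0.880 and 0.692 in CKO 1 to 5, against 1.61, 0.685, 0.801, 1.33 and 0.700 in flox 1 to 5. Flox 1 and flox 4 were the only libraries above 1. Gjb1 (connexin 32), a gap junction channel of gut and liver epithelium, had 40.3, 50.9, 54.5, 30.6 and 55.5 CPM in CKO 1 to 5, against 30.9, 59.0, 47.9, 31.5 and 43.7 CPM in flox 1 to 5. The lowest values were in CKO 4, flox 1 and flox 4, the libraries with the largest mitochondrial shares, and the log2 fold change was 0.12 ± 0.21 (edgeR adjusted p = 0.783) and turned to -0.11 without flox 1 and flox 4. Gja1 (connexin 43), which muscle and fibroblasts also make, was at 1.26 to 6.403 CPM in CKO and 0.529 to 4.99 CPM in flox, highest in CKO 5 and flox 3, with a log2 fold change of 0.38 (0.07 without flox 1 and flox 4). CKO 5 and flox 3 were also the libraries of their groups with the highest summed fibroblast and muscle markers, 180.3 CPM in CKO 5 and 62.0 CPM in flox 3. Flox 4 was the lowest library in both. CKO 3 and CKO 4 had 117.6 and 113.2 CPM of these markers, with Gja1 at 2.77 and 1.26 CPM. CKO 2 had 46.5 CPM of them, with Gja1 at 2.75 CPM. All 6 tested markers of that list had fold changes above 0. Its members Acta2 and Myh11 were not tested. They were at 0.181 to 0.603 and 0 to 0.274 CPM in CKO and 0.130 to 0.870 and 0 to 0.227 CPM in flox. The part of fibroblasts and muscle in the Gja1 level was not tested.

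The deposited counts and FPKM together imply a transcript length for each gene and library, and for some members this length moved with flox 1 and flox 4. It was computed for the 35 members with at least 0.5 FPKM in every library. Cldn7 had 645 (flox 1) and 810.1 (flox 4) bases, where the remaining 8 libraries spanned 869 to 954. Pkp3 had 1328 (flox 1) and 1439 (flox 4) bases, where the remaining 8 libraries spanned 1657 to 2010.1, and Patj had 2260.4 (flox 1) and 2452 (flox 4) bases, where the remaining 8 libraries spanned 2555 to 3933. For these 3 CPM was also highest in that pair of libraries. Marveld2 was shortest there too, with 2293 (flox 1) and 2260.2 (flox 4) bases, where the remaining 8 libraries spanned 2305 to 2674, but its CPM was lowest there. For Ocln the order was the reverse, with 3566 (flox 1) and 3279 (flox 4) bases, where the remaining 8 libraries spanned 2563 to 2962. Cgn, Ctnna1 and Dsc2 were also longest in flox 1 and flox 4, by smaller margins. By contrast the implied length of Cldn3 varied from 939 to 973 bases over the 10 libraries. The longest and shortest lengths differed by at least 1.2-fold for 9 of 35 members (25.7%), beside 43.1% of 11457 genes measured the same way. Both flox 1 and flox 4 were shorter than any other library by at least 5% for 2 members (Cldn7 and Pkp3, 5.71%), beside 6.33% of all. Both were longer by at least 5% for 1 member (Ocln, 2.86%), beside 2.74% of all. For Cldn12 the pair lay at opposite ends, longest in flox 1 at 3442 bases and shortest in flox 4 at 2408. Between the groups, Cldn7 had an implied length of 902 ± 21.7 bases in CKO and 852 ± 128 in flox (SD, n = 5 each). Pkp3 had 1871 ± 152 bases in CKO and 1669.8 ± 266 in flox, and the FPKM of both genes carry this difference. How the authors set the lengths is not given in the sources used here.

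**Figure D5:**
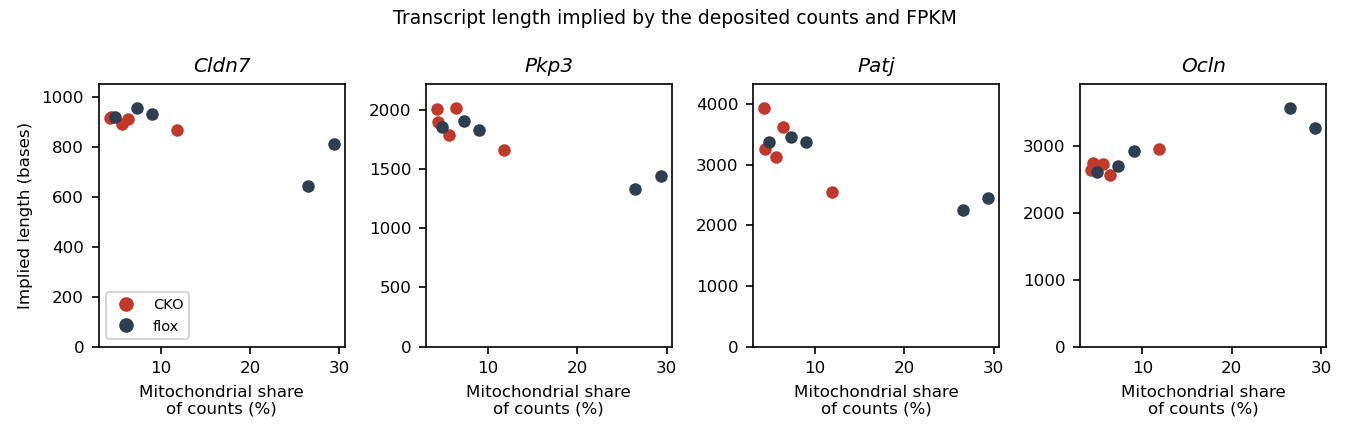
Transcript length implied by the deposited counts and FPKM (vertical axes, bases, from 0) against the mitochondrial share of counts (horizontal axes, %) for Cldn7, Pkp3, Patj and Ocln, 1 point per library (CKO red, flox dark). The flox points at the right are flox 1 and flox 4, shorter than the other 8 for Cldn7, Pkp3 and Patj and longer for Ocln.

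Beyond the 39, a further list of junction genes (69 names, of which 60 matched a gene of their own and 44 were tested) had 0 called by edgeR and 0 by DESeq2. At an unadjusted p under 0.05 it had 10 by edgeR, 2 above 0 and 8 below. That is 22.7% of those tested, beside 13% of all genes, and 11.1% without flox 1 and flox 4, beside 6.41%. The smallest p was that of Cldn10, a claudin with cation and anion pore forms, at 0.438, 0.543, 0.346, 0.439 and 0.460 CPM in CKO 1 to 5, against 0.712, 0.675, 0.713, 1.21 and 1.47 CPM in flox 1 to 5. All 5 CKO libraries lay below all flox libraries, at a low level. CKO and flox stood fully apart in 2.18% of all genes tested. Without flox 1 and flox 4 the fold change of Cldn10 was much the same. It was -1.09 ± 0.33 with all libraries (edgeR adjusted p = 0.346) and -1.08 without that pair. Next came the atypical protein kinases C of the apical polarity complex, on opposite sides of 0. Prkcz stood at 85.3 ± 17.1 CPM in CKO and 135 ± 43.3 CPM in flox, with a log2 fold change of -0.66 (-0.29 without flox 1 and flox 4). Prkci stood at 61.1 ± 6.83 CPM in CKO and 44.4 ± 10.4 CPM in flox, with a log2 fold change of 0.46 (0.35 without them). Camsap3, which anchors microtubules to the adherens belt, stood at 95.6 ± 19.1 CPM in CKO and 127 ± 9.69 CPM in flox, with a log2 fold change of -0.41 (-0.32 without them). These 3 had the same edgeR adjusted p of 0.365.

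Of 33 regulators of junctions, 27 were tested, 0 were called by edgeR and 0 by DESeq2, and 1 had an unadjusted p under 0.05 by edgeR (3.70%, beside 13% of all genes). That gene was Wnk4, a kinase that acts on claudins and ion transport, at 38.9 ± 7.22 CPM in CKO and 55.3 ± 17.2 CPM in flox. Its log2 fold change of -0.51 (edgeR adjusted p = 0.374) was -0.17 without flox 1 and flox 4. The regulators had 7 fold changes above 0 and 20 below, with a median of -0.06, and 12 above and 16 below without flox 1 and flox 4.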

How the data were processed

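Counts in the deposited table are whole-number reads per Ensembl gene ID and library, not normalized, with 1 column per library. The deposited FPKM values of the second table are the authors' counts scaled by transcript length and library total. Per the submitters' processing notes, reads were processed with fastp and HISAT2. The sources used here name no genome build, annotation, counting tool or strand setting, so reads shared with antisense or overlapping genes cannot be told apart. In GENCODE M21 8 members share exon bases with another gene (Afdn, Cldn3, Ctnna1, Ctnnd1, Dsg2, Dsp, Nectin2 and Tjp3), 1 of them (Ctnnd1) over 10%.

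Symbols came from GENCODE M21 (26095 of 33632 IDs matched). edgeR 4.0.16 (R 4.3.3) was run with filterByExpr, TMM scaling and robust quasi-likelihood fits of a model of group alone, and Benjamini-Hochberg adjustment over all 14963 genes. DESeq2 1.42.0 and limma 3.58.1 were alternatives; on FPKM limma used log2(FPKM + 1) or log2(FPKM + 0.1), a scale that understates changes of low genes. Fold changes are CKO over flox, SE are those of the fit, and intervals are at 95%. CPM use the TMM-scaled library size. Implied length is the count divided by the product of FPKM and library total, rescaled to bases. The scripts were tested on simulated data with 200 changed genes. The outcome is not given here, and this was no test of the results above.

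The members and lists were chosen with earlier results of these data known. All 39 members may be named; per-library values are given for claudins, the 8 smallest p, and the most abundant member of each class, and from the other lists up to 4 with the smallest p under 0.05. Same-numbered CKO and flox libraries did not all deviate together, and no CKO library correlated best with its own number (see the closing section). No pairing was therefore used.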

Additional observations from a re-analysis of the deposited data

How the results depend on the processing

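The count of junction genes called was 0 under every alternative run, as were those of the other junction genes and of the regulators. The number of all genes called, 0 with edgeR as reported, was 178 with DESeq2, 71 with DESeq2 without flox 1 and flox 4 (an alternative added after seeing the data), 44 with limma voom with quality weights, 3 with no filter on low counts, 1 with the mitochondrial share as a covariate and 0 to 2 with each library left out (2 without flox 2, otherwise 0). Junction genes at an unadjusted p under 0.05, 3 as reported, numbered 5 with upper quartile scaling, with DESeq2 and with limma voom, 7 with quality weights, 9 with limma on log2(FPKM + 1) or log2(FPKM + 0.1), 0 with the mitochondrial covariate, 0 without flox 1 and flox 4 by edgeR or DESeq2, and 1 to 7 with each library left out (7 without flox 5, 6 without flox 2 or CKO 4, 2 without CKO 1, CKO 3 or flox 3, and 1 without CKO 5, flox 1 or flox 4). All genes at that level numbered 1939 of 14963 as reported, 1889 with upper quartile scaling, 2435 with DESeq2 and 1803 with limma voom. They numbered 3564 with quality weights, 2394 with limma on log2(FPKM + 1), 2329 on log2(FPKM + 0.1) and 1055 with the mitochondrial covariate. Without flox 1 and flox 4 they were 1001 by edgeR and 1123 by DESeq2, of 15628. With each library left out they ran from 1109 (without CKO 3) to 3154 (without flox 2), and were 2856 without flox 5. The median over junction genes, 0.12, was 0.48 with limma on log2(FPKM + 1) and 0.55 on log2(FPKM + 0.1). The median of all genes was 0.30 and 0.41 there, a shift of the whole scale. FPKM are scaled to the library total without TMM factors. These factors were 0.585 in flox 1, 0.605 in flox 4 and 0.965 to 1.28 in the other libraries. Their part in the shift was not tested. Class medians on log2(FPKM + 1) were 0.55 for pore-forming claudins, 0.38 for sealing claudins and 0.63 for Cldn7, Cldn12 and Cldn23. They were 0.72 for occludin and its relatives, 0.46 for the scaffolds and 0.48 for the adherens junction. The desmosome had 0.30, Epcam 0.72 and the connexins 0.45. On log2(FPKM + 0.1) they were 0.56 for pore-forming claudins, 0.40 for sealing claudins and 0.68 for Cldn7, Cldn12 and Cldn23. Occludin and its relatives had 0.77, the scaffolds 0.50 and the adherens junction 0.48. The desmosome had 0.45, Epcam 0.72 and the connexins 0.66. With each library left out, the medians ran over 0.04 to 0.20 for all junction genes, -0.02 to 0.26 for pore-forming claudins, -0.35 to 0.26 for sealing claudins (the lowest without CKO 4), 0.20 to 0.41 for Cldn7, Cldn12 and Cldn23, 0.24 to 0.43 for occludin and its relatives, -0.02 to 0.11 for the scaffolds, 0.02 to 0.19 for the adherens junction, -0.04 to 0.11 for the desmosome, 0.12 to 0.34 for Epcam and -0.02 to 0.54 for the connexins. The log2 ratio of pore-forming to sealing claudins, CKO minus flox, was 0.46 with a spread of 0.70 (SD), 0.18 to 0.68 with each library left out, -0.20 without flox 1 and flox 4 and -0.33 with Cldn3 left out. Among the uncalled fold changes of the 38 junction genes, the sign changed for 10 without flox 1 and flox 4, 13 with the mitochondrial covariate and 10 with limma on log2(FPKM + 1), 1 with limma voom, 2 with quality weights, and 0 with other scalings, DESeq2 on all libraries or other filters. The deviations of same-numbered CKO and flox libraries correlated at -0.30, 0.28, 0.09, 0.40 and -0.06 for numbers 1 to 5, and no CKO library correlated best with its own number. The replicate block left 0 genes called, 5 junction genes at an unadjusted p under 0.05 and 1 junction gene with a changed sign. Of all 14963 genes, 1986 were at that level with the block. Depth limits Cldn1, Snai1, Zeb1 and Zeb2, which had too few counts for a test.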
